A study of Mus musculus with 8 samples.

Results

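The pulmonary surfactant system was followed through 10 genes of whole lungs of newborn mice. They encode the surfactant proteins Sftpa1, Sftpb, Sftpc, Sftpd and Sfta2 and the processing proteases Napsa and Ctsh. The others encode the lamellar body proteins Abca3 and Lamp3 and the phosphate cotransporter Slc34a2, grouped with them here. The genes were taken by symbol, in a choice made with earlier results of these data known, as every array feature that the platform annotation assigns to 1 of these symbols. That gave 12 features for the 10 genes, out of 31425 named features for 20842 genes. Sftpb and Sftpd had 2 features each and the other genes 1. All 8 pups were of the C57Bl/6J background and were kept in a chamber with 20% oxygen from postnatal day 0 to day 3. Lungs of 4 pups labelled wild type were compared with those of 4 pups labelled Fgf10+/- (titled TG), heterozygous for Fgf10, which encodes fibroblast growth factor 10 (FGF10). RNA from each lung was hybridised to a 1-colour (Cy3) Agilent array, and the values are log2 signals. The submitters call the samples of a group independent, and no source used here gives the litter, sex, slide or scan date.

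Surfactant is a film of lipid and protein that lowers surface tension in the alveoli and keeps them open after birth. Alveolar type 2 (AT2) cells make it, store it in lamellar bodies, which are lysosome-related organelles packed with phospholipid membranes, and release it by exocytosis. The small hydrophobic proteins SP-B and SP-C are cut from larger precursors on the way to the lamellar body and spread the lipid film, while SP-A and SP-D are collectins, soluble lectins with a collagen-like tail that bind microbes. Surfactant genes are switched on late in gestation, and NKX2-1, FOXA and C/EBP factors bind their promoters. FGF10 comes from the mesenchyme and acts on the epithelium through FGFR2.

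The promoters of 6 of the 10 genes were found in the RefSeq promoter table (GRCm38.p6), and the 4 that carry letters of NKX2-1 or C/EBP are printed. Not printed are Lamp3, with FOXA letters only, and Abca3, with none of the letters searched. Both were also lower in the libraries labelled Fgf10+/-. Capitals mark CTCAAG or CACTTG, core letters bound by NKX2-1, and TTGCNNAA, letters of C/EBP sites, where N is any base. Each run is the 250 bases before the annotated start, 5′ to 3′ on the gene's strand, and all 4 genes lie on the plus strand, Sftpb at chr6:72304360-72304609, Sftpa1 at chr14:41131538-41131787, Sfta2 at chr17:35649458-35649707 and Slc34a2 at chr5:53049103-53049352.
Sftpb: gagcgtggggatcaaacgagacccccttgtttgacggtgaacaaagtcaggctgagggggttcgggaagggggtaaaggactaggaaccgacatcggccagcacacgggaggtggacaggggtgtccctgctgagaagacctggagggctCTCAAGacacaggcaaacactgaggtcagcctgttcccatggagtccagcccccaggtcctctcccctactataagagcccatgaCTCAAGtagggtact
Sftpa1: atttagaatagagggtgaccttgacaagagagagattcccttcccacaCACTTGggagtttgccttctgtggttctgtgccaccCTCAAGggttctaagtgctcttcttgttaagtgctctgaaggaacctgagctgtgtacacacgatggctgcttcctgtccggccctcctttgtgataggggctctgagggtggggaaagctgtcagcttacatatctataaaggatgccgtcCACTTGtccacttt
Sfta2: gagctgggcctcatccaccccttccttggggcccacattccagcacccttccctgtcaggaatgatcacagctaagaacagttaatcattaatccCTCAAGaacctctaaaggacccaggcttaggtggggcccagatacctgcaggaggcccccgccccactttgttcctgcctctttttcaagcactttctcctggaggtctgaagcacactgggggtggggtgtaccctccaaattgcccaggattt
Slc34a2: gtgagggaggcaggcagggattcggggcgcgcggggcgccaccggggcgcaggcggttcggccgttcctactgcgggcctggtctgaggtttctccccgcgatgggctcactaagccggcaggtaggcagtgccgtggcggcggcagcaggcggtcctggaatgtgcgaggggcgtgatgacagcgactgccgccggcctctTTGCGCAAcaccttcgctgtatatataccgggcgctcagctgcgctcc
Both strands were searched. CTCAAG was in 3 of the 6 promoters (Sftpb, Sftpa1 and Sfta2) and in 13.3% of all 32851 promoter windows of this length. In Sftpb its first base lay 100 and 15 bases before the start. CACTTG was in 1 of the 6, that of Sftpa1, at 202 and 14 bases before the start, and in 11.6% of all windows. TTGCNNAA was in that of Slc34a2 alone among the 6 and in 9.56% of all. The FOXA letters TGTTTAC were in that of Lamp3 alone among the 6, on the minus strand of chromosome 16, and in 3.17% of all. The GATA letters AGATAA were in 0 of the 6 and in 9.99% of all windows. The motifs do not overlap each other in the printed runs, and a match is a description of letters only.

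Fgf10, the targeted gene, gave no check of the labels. Its signal was 7.49, 7.81, 6.89 and 7.64 in wild-type replicates 1 to 4 and 7.55, 7.96, 7.96 and 8.33 in the libraries labelled Fgf10+/-. The groups overlapped (difference 0.49, SE 0.24; exact permutation p = 0.0857), and the mean was higher in the latter group for 10 of 10 Fgf10 features. The sources used here do not place those features against the disrupted part of the gene, so each direction below rests on the labels. Wild-type replicate 4 stood apart by muscle, fat and cartilage genes. Its mean log2 deviation was 2.63 over 9 skeletal muscle markers, 1.55 over 7 fat markers and 3.43 over 6 cartilage markers, against at most 0.090 in any other library for any of the 3 lists. The members are therefore also given without it.

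All 10 surfactant genes had a lower mean in the libraries labelled Fgf10+/-, as did 10465 of all 20842 genes. Sftpc is in that count by -0.0024 only, at the top of the scale, and gets no call. For 8 of the 10, all but Sftpc and Sftpd, the 4 values of that group all lay below the 4 wild-type values. Such a separation was seen for 4.4% of all 20842 genes, and for 9.36% of the 2330 genes at least as bright as the dimmest member. The median member difference was -0.59 on the log2 scale, against -0.0012 over all genes tested. Without wild-type replicate 4 the median was -0.67, and 9 of the 10 were separated, Sftpd being added, where 7.68% of all genes and 14.2% of those at least as bright as the dimmest member were. The same 9 were separated without replicate 1 of the libraries labelled Fgf10+/-, where 7.23% of all genes and 13.4% of the brighter ones were.

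No member passed an adjusted p of 0.05 in limma, where 0.0% of all genes passed. At an unadjusted p under 0.05, 9 of the 10 were lower, against 6.29% of all genes in that direction. The smallest adjusted p among the members was 0.0767, for Napsa, a value that no gene went below. How many members passed changed with the fit. With a variance trend and robust settings 8 did (all but Sftpc and Sftpd), where 1.28% of genes passed as lower. With the genes below the 50th percentile of signal left out 6 did (Sftpa1, Sfta2, Abca3, Napsa, Lamp3 and Slc34a2), where 1.87% passed as lower. In whole lung, fewer AT2 cells and less RNA per cell cannot be told apart.

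**Figure D1:**
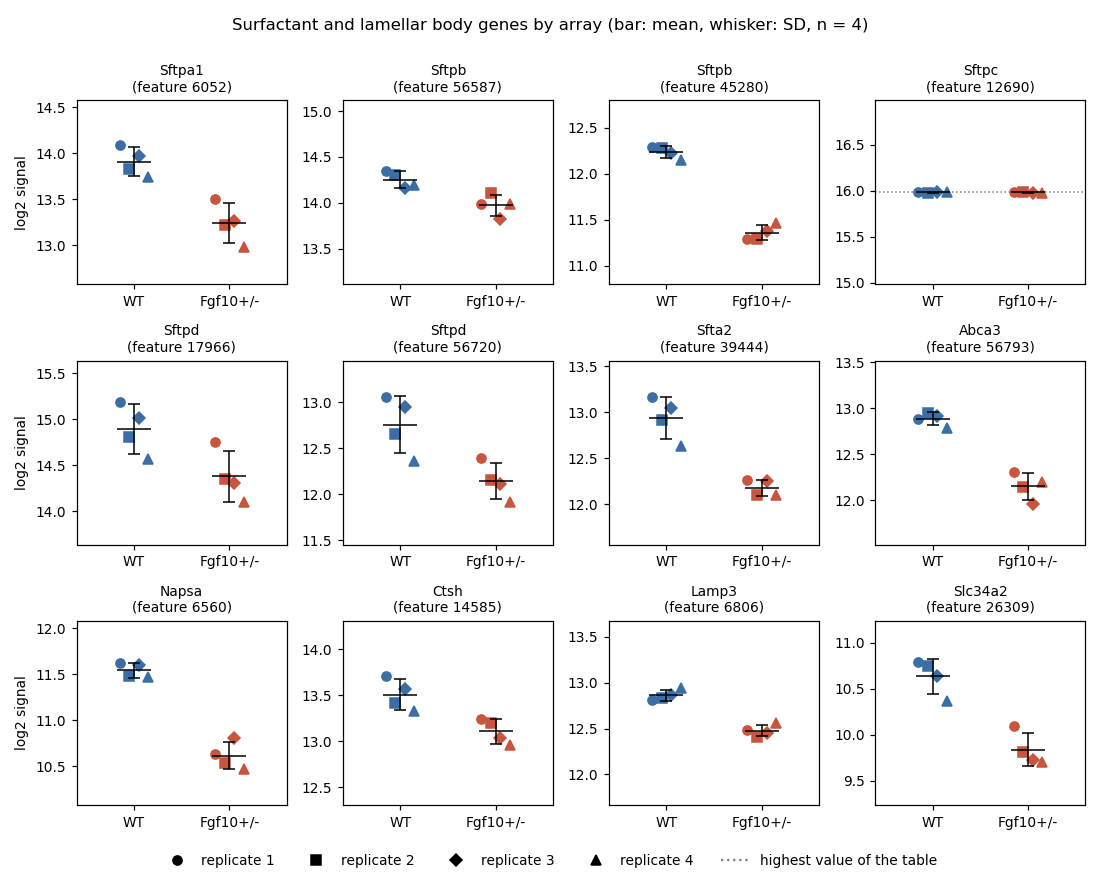
Log2 signal of the 12 member features in each of the 8 arrays (y axis, every panel spanning the same 2 log2 units), by group (x axis), with replicates as symbols, the mean as a bar and the SD as a whisker (n = 4). Groups are separated in 9 panels and overlap in those of Sftpc and Sftpd; Sftpc sits at the dotted line, the highest value of the table.

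The collectins are the soluble proteins of surfactant. Sftpa1, which encodes SP-A, read 14.09, 13.83, 13.97 and 13.74 in wild-type replicates 1 to 4 and 13.50, 13.22, 13.27 and 12.98 in replicates 1 to 4 of the libraries labelled Fgf10+/-. The groups did not overlap, and the lowest wild-type value lay 0.24 above the highest of the other group. The difference was -0.67 (SE 0.14; 95% interval -0.99 to -0.34; limma adjusted p = 0.169; exact permutation p = 0.0286, two-sided, which is as small as 70 assignments can give), or 63.0% of the wild-type signal on the linear scale.

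Sftpd, which encodes SP-D, had the same order of wild-type libraries as Sftpa1 but overlapping groups. Its brighter feature read 15.18, 14.81, 15.01 and 14.56 in the wild-type libraries and 14.75, 14.35, 14.30 and 14.10 in those labelled Fgf10+/-. Replicate 1 of the latter group lay above wild-type replicate 4. The difference of -0.52 (SE 0.19; limma adjusted p = 0.354; exact permutation p = 0.0571) was the lowest among the 182 named features with a mean signal between 14 and 0.5 below the top of the scale. The dimmer feature, with a mean of 12.76 ± 0.31 (SD, n = 4) in wild type and 12.15 ± 0.20 in the other group, differed by -0.61 (SE 0.18). Both features gave the same order of replicates, and their log ratio within an array did not separate the groups (exact permutation p = 0.114).

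In the mouse genome Sftpa1 and Sftpd lie on chromosome 14 with a single protein-coding gene between them, Mbl1, a collectin of the serum. Mbl1 was near the floor at 3.03 in wild type and 2.58 in the libraries labelled Fgf10+/-, with a difference of -0.45 (SE 0.41; limma adjusted p = 0.751).

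The hydrophobic proteins were measured least evenly. Sftpb encodes the precursor of SP-B, without which lamellar bodies do not form normally, and its 2 features did not give the same size of difference. The brighter feature (56587) read 14.35, 14.31, 14.16 and 14.20 in wild type and 13.99, 14.10, 13.83 and 13.99 in the libraries labelled Fgf10+/-. The groups were parted by 0.053, with a difference of -0.28 (SE 0.11; 95% interval -0.52 to -0.034; limma adjusted p = 0.392). The dimmer feature (45280) read 12.29, 12.28, 12.22 and 12.15 in wild type and 11.29, 11.29, 11.38 and 11.46 in the other group. There the groups were parted by 0.69, and the difference was -0.88 (SE 0.10; 95% interval -1.11 to -0.65), or 54.3% of the wild-type signal, with a limma adjusted p of 0.102 over all features.

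The disagreement between these features was larger than the spread between replicates. The bright feature exceeded the dim one by 1.93 to 2.06 in the wild-type libraries and by 2.45 to 2.81 in those labelled Fgf10+/-, so the 2 differences were 0.60 apart (exact permutation p = 0.0286). The annotation gives both features the same transcript, and the sources used here do not place either along it. The brighter feature stood for the gene by rule. With both averaged the Sftpb difference was -0.58.

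Sftpc, the classical AT2 marker gene, could not be compared. Its 8 values lay between 15.976 and 15.985, the highest value of the table, and its feature ranked first or second of 62976 on every array. Because the arrays had been brought to a common distribution, a feature at those ranks takes 1 of 2 values whatever its abundance. The difference of -0.0024 is therefore printed with no fold and no call. Of the named features, 31 had a mean within 0.5 of the top, and their differences ran from -0.094 to 0.097, with a median size of 0.023, against 0.093 for the 3334 features with signals from 10 to 14. The club cell secretoglobin gene Scgb1a1 was in the same zone, at 15.96 in wild type and 15.93 in the other group.

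Sfta2 encodes a small secreted protein named for its association with surfactant. It read 13.17, 12.92, 13.05 and 12.63 in wild type and 12.26, 12.10, 12.25 and 12.10 in the libraries labelled Fgf10+/-. The groups lay 0.37 apart at their nearest, and the spread was wider in wild type (SD 0.23) than in the other group (SD 0.089). The difference of -0.76 (SE 0.14; limma adjusted p = 0.140) corresponds to 58.9% of the wild-type signal.

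**Figure D2:**
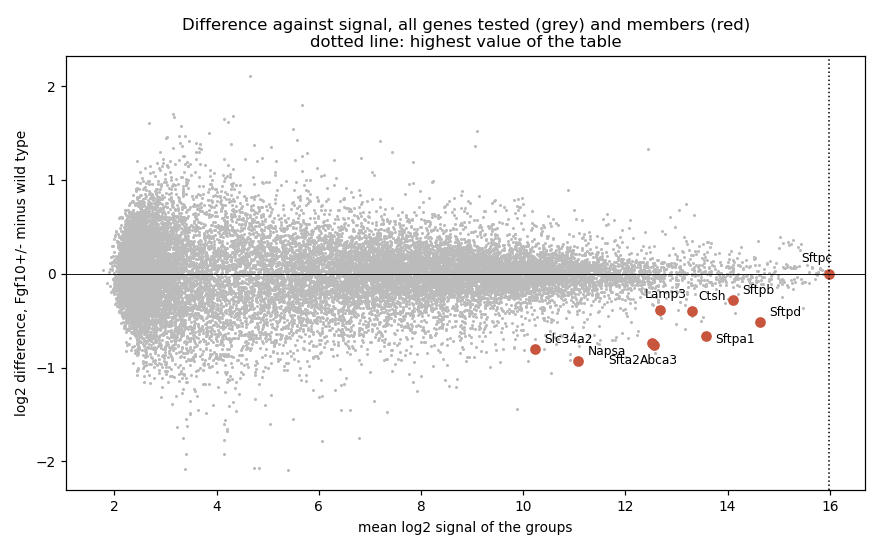
Log2 difference between the libraries labelled Fgf10+/- and wild type (y axis) against the mean log2 signal of the groups (x axis) for 20842 genes in grey and the 10 members in red, with the highest value of the table as a dotted line. The spread of all genes narrows towards the top, where Sftpc sits at -0.0024; the other 9 members lie below 0, from -0.28 (Sftpb) to -0.93 (Napsa).

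Of the proteases that cut the precursors, Napsa had the largest difference of the 10 genes and Ctsh a smaller one. Napsa encodes napsin A, an aspartic protease that trims proSP-B in AT2 cells. It read 11.62, 11.48, 11.60 and 11.47 in wild type and 10.63, 10.53, 10.81 and 10.47 in the libraries labelled Fgf10+/-. The nearest values of the groups lay 0.66 apart, against an SD of 0.080 in wild type and 0.15 in the other group. The difference was -0.93 (SE 0.11; 95% interval -1.19 to -0.67; limma adjusted p = 0.0767; exact permutation p = 0.0286), or 52.4% of the wild-type signal. By p it ranked 7 among all genes.

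Ctsh encodes cathepsin H, a cysteine protease that also acts on proSP-B and is found in many other cells. It read 13.70, 13.42, 13.57 and 13.33 in wild type and 13.24, 13.19, 13.03 and 12.96 in the other group. The groups were parted by 0.088, and the difference was -0.40 (SE 0.13; 95% interval -0.69 to -0.11; limma adjusted p = 0.289).

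All 3 genes of the lamellar body group, in which Slc34a2 was placed, were separated between wild type and the libraries labelled Fgf10+/-. Abca3, the transporter that carries phospholipid into the lamellar body, read 12.88, 12.95, 12.92 and 12.79 in wild type and 12.31, 12.14, 11.96 and 12.19 in the libraries labelled Fgf10+/-. The gap between the groups was 0.48, and the difference of -0.73 (SE 0.11; 95% interval -0.99 to -0.48; limma adjusted p = 0.0878; exact permutation p = 0.0286) corresponds to 60.1% of the wild-type signal. Slc34a2, the sodium-phosphate cotransporter of AT2 cells, which takes up the phosphate left by surfactant phospholipid, read 10.79, 10.75, 10.64 and 10.36 in wild type and 10.10, 9.82, 9.73 and 9.71 in the other group. Its groups lay 0.26 apart, and its difference came next to that of Napsa, -0.80 (SE 0.14; limma adjusted p = 0.140), or 57.5% of the wild-type signal.

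Lamp3, a glycoprotein of the lamellar body membrane, differed less but with the tightest replicates. It read 12.81, 12.83, 12.86 and 12.94 in wild type and 12.48, 12.41, 12.45 and 12.56 in the libraries labelled Fgf10+/-. The SD was 0.060 in wild type and 0.061 in the other group, and the groups lay 0.25 apart. The difference was -0.38 (SE 0.093; 95% interval -0.60 to -0.17; limma adjusted p = 0.199), or 76.6% of the wild-type signal.

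**Figure D3:**
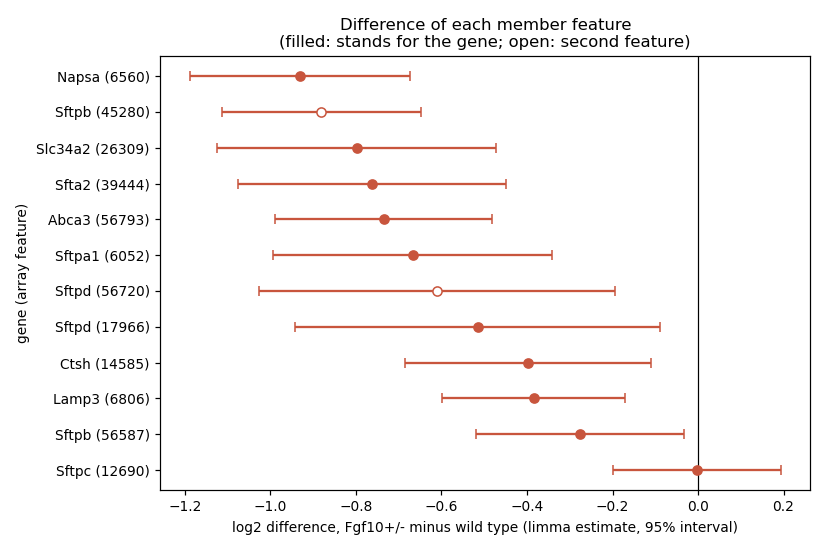
Log2 difference of each of the 12 member features (points, limma estimates) with its 95% interval (bars), ordered by size along the y axis, with open points for the second feature of Sftpb and Sftpd. The interval of Sftpc alone spans 0; the features of Sftpb stand at -0.28 and -0.88.

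The fitted differences ran from -0.28 to -0.93 among the 9 members below the top of the scale, and no pair of them was told apart after adjustment. The log ratio of 2 members within an array separated the groups for 11 of 36 pairs. Among those pairs were Napsa against Lamp3 (-0.55), Napsa against Ctsh (-0.53) and Ctsh against Slc34a2 (0.40). Each had an exact permutation p of 0.0286 and, with Benjamini-Hochberg adjustment over the 36 pairs, 0.0935, the smallest this family gave. As 0.0286 is the smallest p this test can give, no pair could pass the adjustment unless many more than 11 reached it. The adjusted result therefore does not show that the members differed alike. The 36 pairs share genes and arrays, and the share of separated pairs among other genes was not taken. Of the 11 pairs 5 hold the brighter feature of Sftpb, whose other feature differed by -0.88. Sfta2 and Abca3 were 0.028 apart (exact permutation p = 0.857).

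Within a group the members tended to share their high and low arrays. Wild-type replicate 1 was highest for 7 of the 9 members and wild-type replicate 4 lowest for 7. In the libraries labelled Fgf10+/-, replicate 1 was highest for 6 of the 9 and replicate 4 lowest for 6. Lamp3 went the other way, with replicate 4 highest in both groups and wild-type replicate 1 lowest. The low arrays were not particular to the members. Lists of epithelial, club, ciliated and other AT2 markers, given below, were also lowest in replicate 4 of each group, while their highest replicate varied. The share over all genes was not taken. The mean log2 deviation of the 9 members was 0.44, 0.29, 0.34 and 0.15 in wild-type replicates 1 to 4 and -0.16, -0.31, -0.34 and -0.40 in the other 4 libraries. The nearest libraries of the 2 groups were thus wild-type replicate 4, which holds the muscle, fat and cartilage signal, and replicate 1 of the other group.

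**Figure D4:**
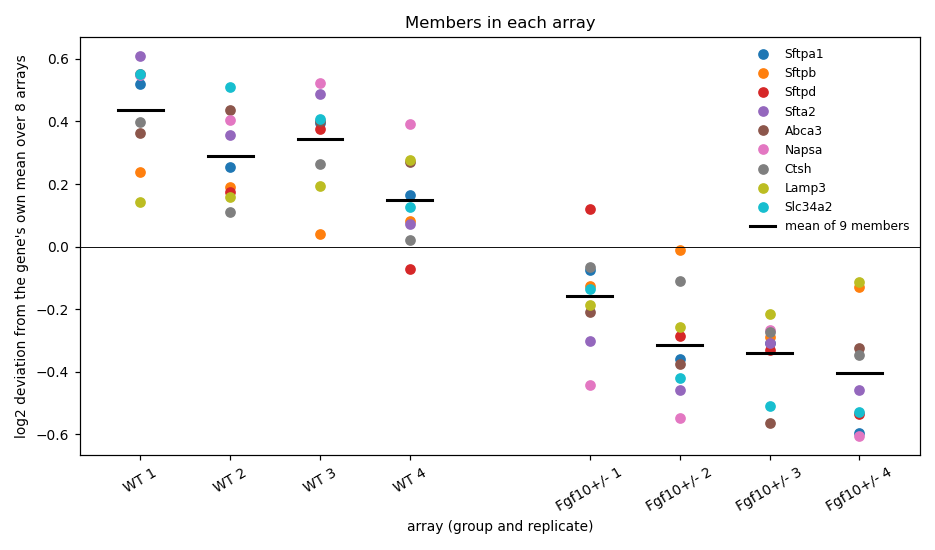
Deviation of each of 9 members from its own mean over the 8 arrays (y axis, log2) in each array (x axis), with the mean of the 9 as a black bar; Sftpc, at the top of the scale, is left out. The bars run from 0.15 to 0.44 in wild type and from -0.40 to -0.16 in the libraries labelled Fgf10+/-.

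The genes whose profile over the 8 arrays was closest to the members' mean were Nceh1, Enho, Ldhb, Myh14 and Tmem42. Likeness was the mean absolute log2 difference from that profile, over 10411 brighter genes. It was 0.037 for Nceh1, a cholesteryl ester hydrolase, 0.040 for Enho, which encodes a secreted peptide, 0.041 for Ldhb, a lactate dehydrogenase subunit, 0.056 for Myh14, a non-muscle myosin heavy chain, and 0.058 for Tmem42. Sftpa1, the closest member, was at 0.067. Nceh1 differed by -0.57 (SE 0.12), Enho by -0.60 (SE 0.11), Ldhb by -0.60 (SE 0.11), Myh14 by -0.61 (SE 0.13) and Tmem42 by -0.56 (SE 0.11). None passed (limma adjusted p from 0.152 to 0.178). Differences near the members' own follow from how these genes were picked, on the same 8 arrays, and are no separate result.

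Of the 17 transcription factors and signals that act on surfactant genes 13 had a lower mean. None passed limma's adjusted test, while at an unadjusted p under 0.05, 6 were lower and 1, Cebpb (0.24, named after its values were seen), was higher. Of all genes 6.29% were lower and 4.74% higher at that p. The list median was -0.31. Cebpa, a C/EBP factor of maturing AT2 cells, read 8.64, 8.31, 8.55 and 8.64 in wild type and 7.63, 7.61, 7.76 and 7.77 in the other group, a difference of -0.84 (SE 0.11; limma adjusted p = 0.0767). Etv5, an ETS factor that acts downstream of FGF signals, differed by -0.74 (SE 0.10; limma adjusted p = 0.0767), and Foxa1, a forkhead factor, by -0.54 (SE 0.11; limma adjusted p = 0.157). Each of these 3 genes, named for the smallest p of the list, had every value of the libraries labelled Fgf10+/- below every wild-type value. Over the list 6 of 17 were separated in that direction, against 4.4% of all genes. The other way it was 1, Cebpb, against 623 of all 20842 genes. Of the factors whose letters stand in the printed promoters, Nkx2-1, named here for that reason and after its values were seen, read 10.73, 10.50, 10.59 and 10.22 in wild type and 10.12, 10.13, 9.75 and 9.85 in the other group (difference -0.55, SE 0.15; limma adjusted p = 0.244).

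Genes of protein folding in the endoplasmic reticulum had mostly higher means. Of 19 genes of surfactant protein folding, sorting and proteolysis 16 had a higher mean, with a list median of 0.25, and 0 passed limma's adjusted test. At an unadjusted p under 0.05, 4 were higher and 1 was lower, where 4.74% of all genes were higher and 6.29% lower. Pdia3, a disulfide isomerase, was at 10.85 ± 0.20 (SD, n = 4) in wild type and 11.43 ± 0.20 in the libraries labelled Fgf10+/-, whose lowest value, 11.17, lay above every wild-type value, a difference of 0.58 (SE 0.15; limma adjusted p = 0.229). Sdf2l1, a chaperone partner, read 6.17, 6.46, 6.44 and 8.06 in wild-type replicates 1 to 4, against 7.08 to 8.93 in the other group (difference 1.30, SE 0.50; limma adjusted p = 0.399). The other 2 higher genes, named after their values were seen, were Dnajc3 (0.47) and Pdia6 (0.34). Nedd4l, a ubiquitin ligase that sorts proSP-C, was the lower one, at 9.45 to 9.61 in wild type and 8.90 to 9.05 in the other group (difference -0.55, SE 0.095; limma adjusted p = 0.137). The list median was 0.16 without replicate 3 and 0.39 without replicate 4 of wild type, and 0.13 without replicate 3 and 0.15 without replicate 4 of the libraries labelled Fgf10+/-.

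The general machinery of lysosome-related organelles and of secretion had medians near 0. Of 16 organelle genes 9 had a lower and 7 a higher mean, and 0 passed limma's adjusted test. The median was -0.011, and with single libraries left out it ran from -0.041 (without wild-type replicate 2) to -0.0030 (without wild-type replicate 4). At an unadjusted p under 0.05, 2 were lower, the phospholipid flippase gene Atp11a (-0.36, SE 0.10) and Hps1 (-0.56, SE 0.24), which was dim at 4.78 in wild type, and 0 were higher. Of all genes 6.29% were lower and 4.74% higher at that p. Lamp1, a ubiquitous lysosomal membrane protein, was at 13.81 and 13.75, a difference of -0.061 (SE 0.091; limma adjusted p = 0.860).

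Of 12 secretion genes measured 0 passed limma's adjusted test. At an unadjusted p under 0.05, 3 were lower and 0 higher, where 6.29% and 4.74% of all genes were. The 3 were Adgrf5 (-0.36, SE 0.12), a receptor that restrains surfactant pool size, and the vesicle fusion genes Vamp2 (-0.43, SE 0.13) and Vamp8 (-0.34, SE 0.10). The list median of -0.066 turned to 0.043 when replicate 4 of the libraries labelled Fgf10+/- was left out and was -0.020 without wild-type replicate 3. Of 10 genes of surfactant clearance and recycling 0 passed limma's adjusted test. The median was -0.15, or -0.095 without wild-type replicate 1. At an unadjusted p under 0.05, Csf2, the growth factor gene whose product lets macrophages clear surfactant, was lower (-0.79, SE 0.18; limma adjusted p = 0.190) and Lipa, lysosomal acid lipase, was higher (0.56, SE 0.18). Prdx6, a lamellar body phospholipase and peroxidase, differed by -0.18 (SE 0.097; limma adjusted p = 0.548).

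Relatives of the members by sequence family were split in direction. Of 26 measured, among them other collectins, ABCA transporters and BRICHOS proteins, 11 had a lower and 15 a higher mean, with a median of 0.067. Without replicates 2, 3 and 4 of wild type in turn it was -0.0023, 0.034 and 0.13, and without replicate 3 of the libraries labelled Fgf10+/- it was 0.0078. None passed limma's adjusted test. At an unadjusted p under 0.05, 1 was higher, the scavenger collectin Colec12 (0.55, SE 0.16), and 0 were lower. Of all genes 4.74% were higher and 6.29% lower at that p, so the count says nothing particular of these relatives. Colec11 (0.62, SE 0.30) and Slc34a3 (0.38, SE 0.17) had the next smallest p, the latter near the floor at 2.02 in wild type.

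Markers of the AT2 cell and of other epithelial cells also had lower means. Of 18 AT2 markers that are not members 17 had a lower mean (list median -0.40), and 10 were lower at an unadjusted p under 0.05. Of all 20842 genes 10465 had a lower mean, and 6.29% were lower at that p. The brightest were Lyz1 (-0.093, SE 0.18) and Hc (-0.47, SE 0.17). The 12 general epithelial markers measured were all lower in mean (list median -0.45), and 10 were lower at an unadjusted p under 0.05. Cldn3, a claudin, differed by -0.92 (SE 0.18) and Krt18, a simple-epithelium keratin, by -0.67 (SE 0.14). Club cells also make SP-A, SP-B and SP-D. All 8 of their markers were lower in mean (median -0.42), and so were all 9 ciliated markers (median -0.63). No marker of these 4 lists passed limma's adjusted test.

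Per array, the mean deviation of the epithelial list ran from 0.084 to 0.41 in wild type and from -0.46 to -0.074 in the libraries labelled Fgf10+/-. When it was subtracted from the mean of the 9 members, the groups overlapped, at -0.068 to 0.12 in wild type and -0.19 to 0.057 in the other group. When the mean of the 18 other AT2 markers was subtracted instead, the members ran from 0.049 to 0.22 in wild type and from -0.19 to -0.053 in the other group, without overlap. With the mean of the club cell markers subtracted, the groups overlapped, at 0.041 to 0.13 in wild type and -0.37 to 0.11 in the other group. These offsets depend on the list taken, and their part in the members' differences was not tested.

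The flat AT1 cells line most of the alveolar surface. Of 12 AT1 markers 9 had a lower and 3 a higher mean (list median -0.15). At an unadjusted p under 0.05, 4 were lower and 1 higher, where 6.29% and 4.74% of all genes were. The 8 endothelial markers were split evenly in direction, and their median of -0.0040 ran from -0.047 (without replicate 2 of the libraries labelled Fgf10+/-) to 0.061 (without wild-type replicate 2) with single libraries left out. Of 7 mesenchymal markers 5 had a higher mean, with a median of 0.29. Col1a2, a fibrillar collagen chain, read 14.98, 15.18, 14.91 and 15.33 in wild type and 15.54, 15.44, 15.34 and 15.51 in the other group (0.35, SE 0.12; limma adjusted p = 0.346). Fn1, the other of the 2 brightest, had overlapping groups (0.29, SE 0.13; limma adjusted p = 0.465). The 9 macrophage markers had a median of -0.20, which was -0.13 when replicate 4 of the libraries labelled Fgf10+/- was dropped. Their mean deviation of -0.61 in that replicate stood below all others, which ran from -0.021 to 0.24. No gene of these 4 lists passed limma's adjusted test.

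**Figure D5:**
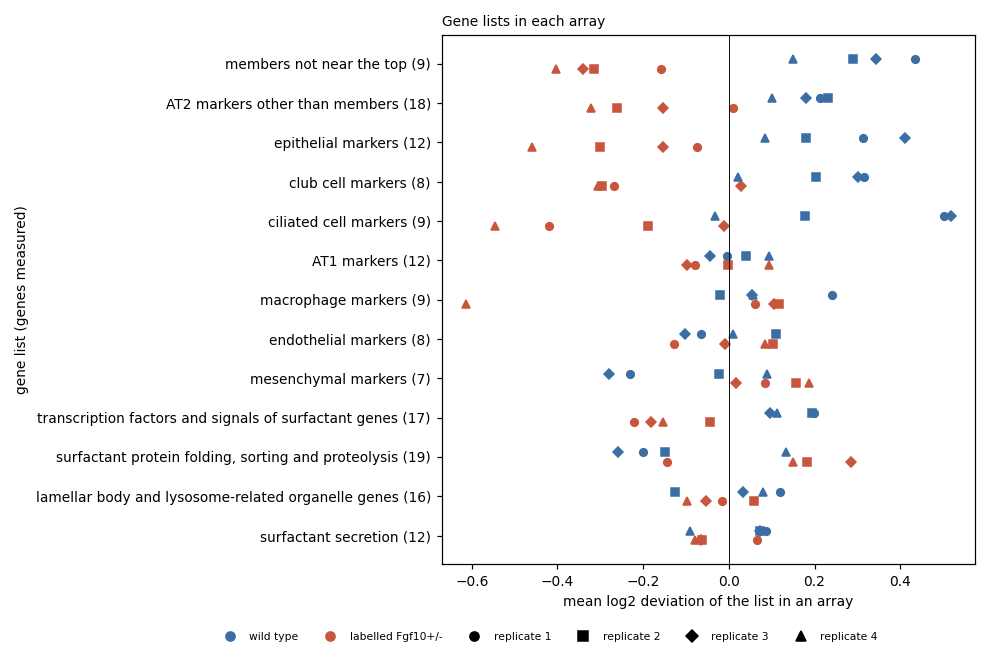
Mean log2 deviation (x axis) of the members and 12 gene lists (y axis, with the number of genes measured) in each array, wild type in blue and the libraries labelled Fgf10+/- in red, with replicates as symbols. The members, the other AT2 markers, the epithelial markers and the transcription factor list are separated between the groups; the organelle, secretion and endothelial lists overlap.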

How the data were processed

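RNA of 8 whole lungs was isolated with a miRNeasy kit, amplified with an Agilent low-input kit and Cy3-labelled (per the labels' protocols). The authors deposited log2 signals for 62976 features, which the values show to be quantile normalized: sorted values differed by at most 0.0042 between arrays. The submitters' processing notes name limma. The sources used here give neither background correction nor saturation flags, and how far differences near the top (15.99) are compressed is unknown.

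Of the features, 31465 carried 1 symbol in the platform annotation, 0 several and 31511 none. Transcript accessions matched 29050 to a RefSeq table (GRCm38.p6) and changed 2933 symbols. Named features with a blank value (40) were dropped, and the feature with the highest mean stood for its gene. The test was limma 3.58.1 in R 4.3.3 (eBayes on group alone, two-sided, p adjusted by Benjamini-Hochberg over 20842 genes, threshold 0.05), with a two-sided exact permutation test over 70 assignments for single values. "Near the top" means a mean within 0.5 of the highest value. The number of arrays (4 a group) limits precision.

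On simulated data for 20842 genes, drawn with their own residual spread, the fit recovered 42 of 100 genes lowered by 1 and 81 of 100 lowered by 2 (log2), with 7 false calls among 130. Both sizes exceed the largest member difference, -0.93, and the lowered genes were drawn from all genes, bright or dim. The recovery therefore does not give the power for the members.

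Named genes were the members, the 3 genes with the smallest p of each pathway list, the 2 brightest of each cell type list, and the 5 genes nearest to the members' mean profile. Not all of the brightest cell type genes are printed. Mbl1 was named for its place between Sftpa1 and Sftpd. Others are marked where chosen later. Members and lists were chosen with earlier results of these data known. The alternatives were averaging features, each feature alone, features below the top, another quantile step, centring on the array's median or its 75th percentile, dropping genes under the 25th or the 50th percentile, a variance trend, array weights, a replicate block and leaving out each replicate. Figures were drawn with matplotlib 3.10.9.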

Additional observations from a re-analysis of the deposited data

Results flagged for a closer look

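Of 114 groups of 4 values among the named genes, 9 held a library far from the other 3 by Dixon's criterion for the gap over the range, which chance gives in about 1 of 20 groups. A single one was a member. Sftpc read 15.98 in wild-type replicate 2, where it ranked 2 of all features, against 1 in the other wild-type libraries. Among the other named genes wild-type replicate 4 was lowest for Tmem42 (9.98) and Cldn5 (12.8) and highest for Sdf2l1 (8.06) and Acta1 (10.96). Wild-type replicate 3 was lowest for Hc (13.56) and Emp2 (13.53), wild-type replicate 2 was highest for Vegfa (12.6), and replicate 3 of the libraries labelled Fgf10+/- was highest for Prdx6 (13.08). The other 11 member features had no such library in either group.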

How the results depend on the processing

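The 9 members below the top of the scale kept a lower mean under all 19 alternatives. Sftpc turned to 0.021 with centring on the median and 0.0034 with centring on the 75th percentile. The count of genes past the adjusted threshold was 0 as reported, 38 with genes below the 25th percentile left out, 288 below the 50th, 414 with a variance trend and robust settings, 3 with array weights and 1 (Sgo2a) without wild-type replicate 4, so 0 to 1 over the left-out replicates. Members past it were 2, 6 and 8 in the first 3 of these settings, and 0 under the others, where their lowest adjusted p ranged from 0.0503 (array weights) to 0.293 (replicate block). The filters test fewer genes and also refit the variance over the genes that are left. Why the filters and the variance trend add calls was not tested. Separated members numbered 8 or 9 throughout, and the median member difference ran from -0.70 without replicate 1 to -0.50 without replicate 4 of the libraries labelled Fgf10+/-.

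Same-numbered replicates correlated at 0.113, 0.023, 0.018 and 0.078 in their deviations, and differently numbered ones at -0.155 to 0.07. Whether the numbers mark pairs of arrays was not tested. The main fit did not use them as pairs. With the replicate block 0 members and 0 genes passed, as without it, and the median was -0.59. Sftpc has no value among features at least 0.5 below the top. Averaging both features moved Sftpb from -0.28 to -0.58.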

Other observations

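Genes that flank the members were also read, the 2 nearest protein-coding genes on each side in the RefSeq table. Of 37 such genes 34 were measured, 21 with a lower mean. The groups were separated, lower in the libraries labelled Fgf10+/-, for 2 of the 34, both named after their values were seen, against 4.4% of all genes, so the count says nothing particular of these positions. Lgi3, which lies next to Sftpc on chromosome 14 and encodes a secreted leucine-rich repeat protein, read 10.44, 10.49, 10.31 and 10.32 in wild type and 9.53, 9.76, 9.84 and 9.87 in the other group (difference -0.64, SE 0.11; limma adjusted p = 0.140). Its signal is far from the top of the scale, unlike that of Sftpc. Myh14, the second gene beyond Napsa on chromosome 7, is 1 of the 5 genes nearest to the members' mean profile. It read 12.66, 12.61, 12.58 and 12.39 in wild type and 12.20, 11.97, 11.74 and 11.86 in the other group (difference -0.61, SE 0.13; limma adjusted p = 0.166).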
